A study of Mus musculus with 10 samples.

Results

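The AP-1 and BATF transcription factors described here are 10 genes, taken by their symbols from the 53656 genes of each deposited count table: Jun, Junb and Jund (JUN genes), Fos, Fosb, Fosl1 and Fosl2 (FOS genes), Batf and Batf3 (BATF genes), and Atf3. All 10 were measured in 10 RNA sequencing libraries of mouse CD4 T cells and all 10 were among the 14214 genes with enough counts to be tested. Each library came from SMARTA T cells, which carry a transgenic receptor for the GP61 peptide of lymphocytic choriomeningitis virus. Naive cells had been transferred into B6 mice treated with cytoxan (cyclophosphamide) that bore B16-GP61 tumours, a mouse melanoma line carrying that peptide, and they were recovered by sorting on day 11 from the tumour-draining lymph node. The TOX KO libraries (n = 6) were sorted as CD4+, Ly5.1+, Ly5.2-, PD1lo, LAG3lo and CD39lo. The TOX WT libraries (n = 4) were sorted as CD4+, Ly5.1+, Ly5.2+, PD1hi, LAG3hi and CD39hi. Genotype, gate and congenic marker therefore cannot be told apart. The labels number the replicates but do not tie them to animals, so every p-value rests on the spread among libraries, part of which may be technical. How Tox was disrupted is not given in the sources used here.

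AP-1 is a family of dimers of basic leucine zipper proteins. FOS proteins cannot pair with themselves and bind DNA together with a JUN protein, while JUN proteins can also pair with each other. BATF and BATF3 lack an activation domain of their own, compete with FOS proteins for JUN partners, and in T cells bind composite DNA elements together with IRF4 or IRF8. T cell receptor signals induce Fos, Fosb, Jun, Junb and Atf3 within minutes as immediate early genes, through MAP kinases, SRF and ELK factors, and the balance of FOS-JUN against BATF-JUN dimers is known to shape effector and exhausted T cell states.

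Depth was 36028980 to 55784453 counts per KO library and 31939816 to 45481478 counts per WT library. Tox, the targeted gene, lay at 15.3 to 68.0 CPM (counts scaled to library size) in KO and at 170 to 357 CPM in WT (log2 fold change -2.93, edgeR adjusted p = 0.010). Library names carry numbers, whose meaning is not given, and the libraries numbered 1 to 3 (KO replicates 1, 2 and 3 and WT replicate 1) stood apart from those numbered 4 to 8 (KO replicates 4, 5 and 6 and WT replicates 2, 3 and 4). The libraries numbered 1 to 3 had counts for 14365 to 15873 genes, and those numbered 4 to 8 for 16348 to 19775 genes. Results below are given with and without this split, which was adopted with earlier results of these data known. The 8 T cell markers summed to 20310 to 25895 CPM in KO and 9245 to 19177 CPM in WT, which fits the labelled cell type, with Trac the most abundant. Markers of other cells moved with genotype: 9 of 10 B cell markers were lower in KO (summed level 974 to 1412 CPM in KO and 5149 to 21728 CPM in WT), as were 4 of 9 tested myeloid and dendritic cell markers (152 to 361 CPM in KO and 1715 to 7277 CPM in WT). Of the NK list, Klrb1c, also found on some T cells, was higher in KO. Ncr1 went the other way, at 0 to 3.23 CPM in KO and 0 to 10.7 CPM in WT, without passing the test over all libraries. It was called lower within library numbers 4 to 8 (edgeR adjusted p = 0.013), where no KO library had a count. Klra8 was too low to test, at up to 0.085 CPM in KO and up to 0.87 CPM in WT. CD8 markers (37.8 to 79.5 CPM in KO and 71.5 to 118 CPM in WT) had no gene that passed the test. Nor had the 3 of 7 markers of stroma, endothelium and melanoma that could be tested. That list summed to 169 to 375 CPM in KO and 81.9 to 364 CPM in WT, nearly all of it Pecam1 (163 to 370 CPM in KO and 81.9 to 357 CPM in WT). Pmel reached at most 6.90 CPM and Col1a1 at most 3.80 CPM. Because these are bulk samples, fewer cells of a type and less RNA per cell cannot be told apart, and the part of these markers in the results below was not tested.

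None of the 10 genes passed the test between KO and WT over all libraries. With edgeR's quasi-likelihood test and a Benjamini-Hochberg adjusted p under 0.05, 0 of 10 were higher and 0 of 10 lower, against a background of 0.429% of all tested genes higher (61 genes) and 2.7% lower (384 genes). At an unadjusted p under 0.05, 3 of 10 were higher (Fosl2, Jun and Junb), against 7.15% of all tested genes, and 0 were lower, against 10.8%. With the library set as a term, 5 of 10 were higher at that threshold (Fos at a log2 fold change of 0.70, Fosl2 at 1.34, Jun at 1.81, Junb at 2.24 and Jund at 0.86), against 9.18% of all tested genes, and 1 was lower (Batf3, -4.90), against 10.6%. None of the 10 passed the adjusted test in that fit. DESeq2 called 1 of 10 higher, Fosl2 (4.31% of all tested genes), and limma-voom called 1 of 10 higher, Junb (1.44%). The log2 fold change was positive for 9 of 10 genes, Batf3 being the exception, with a median of 0.77 beside -0.12 over all tested genes. Scaling to 8 T cell receptor complex genes moved the median of all tested genes to -0.92 and that of the 10 genes to -0.02, with 5 of 10 positive and 17 genes called higher and 1862 lower in all, so the sign of the median depended on the scaling. With library number as a block the median of the 10 was -0.02 beside -0.01 over all tested genes. Only library numbers 2 and 6 held both genotypes, so the genotype term of that fit rested on few libraries. It cannot decide whether the distance from other genes holds, and the labels do not say that a shared number is a block. All 10 genes had groups that overlapped, whereas 2.59% of all tested genes were higher and 6.31% lower in KO without overlap.

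**Figure D1:**
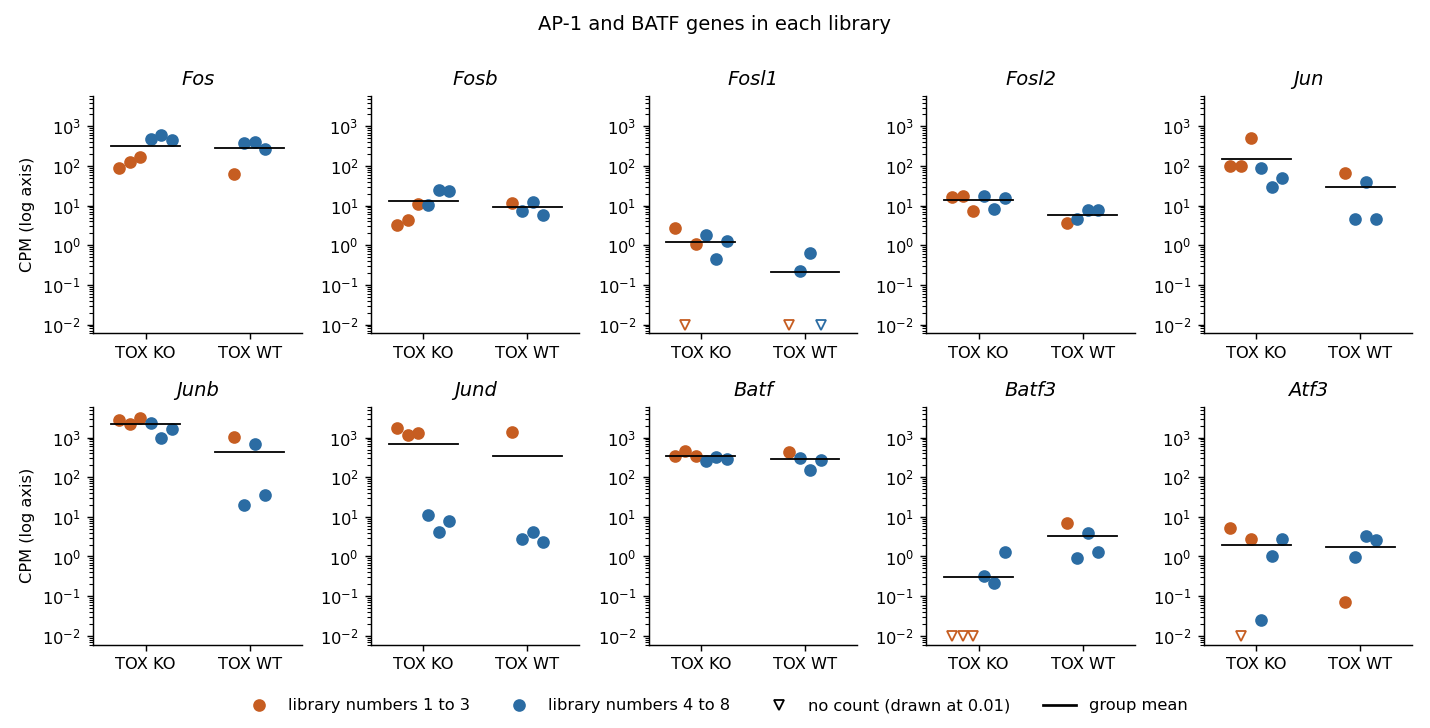
CPM of the 10 genes in each library on a log axis, TOX KO on the left and TOX WT on the right of each panel; colours mark library numbers 1 to 3 and 4 to 8, open triangles mark libraries with no count and lines mark group means. Jund separates by library number in both genotypes, Junb and Jun are lowest in WT replicates 2 and 4, and Batf varies least.

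Among the abundant genes, Jun and Junb gave the largest fold changes and the JUN genes the widest spread. Junb, a JUN protein that in T helper cells partners with BATF, was the most abundant of the 10 genes per exon length in KO. It stood at 2797, 2216, 3075, 2330, 959 and 1631 CPM in KO replicates 1 to 6, and at 1027, 20.3, 689 and 34.8 CPM in WT replicates 1 to 4. Thus 5 of 6 KO libraries lay above every WT library, KO replicate 5 lay below WT replicate 1, and WT replicates 2 and 4 lay far below all others. The group levels were 2168 ± 774 CPM in KO (SD, n = 6) and 443 ± 499 CPM in WT (SD, n = 4). The log2 fold change was 2.29 (± 0.98 SE, adjusted p = 0.25 by edgeR), limma-voom gave 3.70 (adjusted p = 0.046), and scaling to the receptor complex genes left 1.62 (± 1.00 SE, adjusted p = 0.30 by edgeR). Among libraries numbered 4 to 8, KO and WT did not overlap and the log2 fold change was 2.72 (± 1.30 SE, adjusted p = 0.25 by edgeR).

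Jun, the founding JUN protein and the usual partner of FOS, held 102, 99.5, 506, 90.6, 29.1 and 50.3 CPM in KO replicates 1 to 6. In WT replicates 1 to 4 it held 68.2, 4.62, 38.8 and 4.59 CPM. KO replicate 3 stood far above the other KO libraries, and the lowest WT libraries were replicates 2 and 4, as for Junb. The groups overlapped, with 4 of 6 KO libraries above every WT library. Without KO replicate 3 the log2 fold change was 1.46 (± 0.82 SE, adjusted p = 0.43 by edgeR). The log2 fold change of Jun was 2.33 (± 1.03 SE, adjusted p = 0.27 by edgeR) over all libraries and 1.82 (± 0.94 SE, adjusted p = 0.28 by edgeR) among libraries numbered 4 to 8. Jun and Junb were alike across libraries: after each gene was centred on its mean log2 CPM, they differed by a root mean square of 1.00 over the 10 libraries, while Jun and Jund differed by 2.93. Smaller differences among the 10 genes were those of Fosl2 and Batf (0.90) and of Fos and Fosb (0.91). This measure depends on how much a gene varies about its own mean, which was 1.95 for Jun and 2.47 for Junb. For Batf that variation was 0.42 and for Fos 1.08. The smaller value of Fosl2 and Batf, which exceeds the variation of Batf itself, therefore does not show a shared pattern.

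Because Jun and Junb moved together and Fos did not, the promoters of these 3 genes are shown from 250 bases before to 50 bases after the annotated start (RefSeq, mouse build GRCm38.p6, written 5′ to 3′ on the gene's strand). They lie at chr4:95052173-95052472 on the minus strand for Jun, chr8:84978699-84978998 on the minus strand for Junb and chr12:85473640-85473939 on the plus strand for Fos. Capitals mark the only match found.
Jun: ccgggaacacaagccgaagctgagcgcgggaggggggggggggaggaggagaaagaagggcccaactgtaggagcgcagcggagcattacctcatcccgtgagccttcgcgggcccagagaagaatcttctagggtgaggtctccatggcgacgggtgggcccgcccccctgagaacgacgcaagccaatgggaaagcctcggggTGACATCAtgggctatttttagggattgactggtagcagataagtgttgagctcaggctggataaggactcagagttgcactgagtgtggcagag
Junb: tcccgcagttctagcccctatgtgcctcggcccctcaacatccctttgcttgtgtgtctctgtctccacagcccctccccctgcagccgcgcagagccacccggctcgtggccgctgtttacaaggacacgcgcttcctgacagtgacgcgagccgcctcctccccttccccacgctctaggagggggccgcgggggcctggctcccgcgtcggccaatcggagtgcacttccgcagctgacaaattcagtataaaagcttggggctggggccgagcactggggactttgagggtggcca
Fos: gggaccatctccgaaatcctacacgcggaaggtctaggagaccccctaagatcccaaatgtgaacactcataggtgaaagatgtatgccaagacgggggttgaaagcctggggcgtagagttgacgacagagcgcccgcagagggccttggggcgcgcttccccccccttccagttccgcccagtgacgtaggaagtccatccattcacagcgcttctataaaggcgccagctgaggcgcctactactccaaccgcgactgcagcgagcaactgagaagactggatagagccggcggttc
The letters searched on both strands were the AP-1 site TGACTCA, the variant TGACATCA known from the Jun promoter, the cyclic AMP response element TGACGTCA and the CArG box, the element read by SRF. Of the 9 genes with a promoter in the RefSeq table, 1 match was found, TGACATCA in Jun at 45 to 38 bases before the start. For Jund the window (chr8:70697489-70697788, plus strand) ends before the counted gene begins at 70698949, so it does not cover the start of that gene. Over 32851 promoters of the same length, TGACTCA was present in 5.20%, TGACATCA in 3.62%, TGACGTCA in 1.79% and the CArG box in 1.63%. A match describes these letters only, and a window without one says nothing about binding.

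Jund, a JUN protein usually made in resting cells as well, separated by library number in both genotypes. It held 1763, 1163 and 1305 CPM in KO replicates 1, 2 and 3, and 11.2, 4.18 and 7.94 CPM in KO replicates 4, 5 and 6. WT replicate 1 held 1354 CPM, and WT replicates 2, 3 and 4 held 2.82, 4.10 and 2.37 CPM. The libraries numbered 1 to 3 were thus over 100 times higher than the rest of their genotype. Over all libraries the log2 fold change was 1.06 (± 2.08 SE, adjusted p = 0.82 by edgeR), a comparison that mixes the 2 sets. Without WT replicate 1 it was 7.84 (± 2.45 SE, adjusted p = 0.065 by edgeR). In that fit library numbers 1 to 3 held KO libraries only, so its value cannot separate genotype from library set. Among libraries numbered 4 to 8 the 3 KO libraries lay just above the 3 WT libraries (log2 fold change 1.36, ± 0.53 SE, adjusted p = 0.18 by edgeR), and among those numbered 1 to 3 the log2 fold change was 0.10 (± 0.33 SE) with 1 WT library.

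Within KO the difference between the library sets could be set beside all other genes. Jund was 7.58 higher on the log2 scale in library numbers 1 to 3 than in 4 to 8, the seventh largest difference in size among 14214 tested genes. Fos (-2.03) and Batf3 (-3.41) went the other way, and Jun (1.76) and Batf (0.35) the same way as Jund, all without overlap of the KO libraries. These 5 of 10 genes compare with 31.9% of all tested genes whose KO sets did not overlap in either direction, so at 3 against 3 libraries the lack of overlap alone sets none of them apart. Junb (0.80), Fosb (-1.77), Fosl1 (-0.98), Fosl2 (-0.06) and Atf3 (0.56) had sets that overlapped. Between the sets Fos and Jund thus differed in opposite directions.

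**Figure D2:**
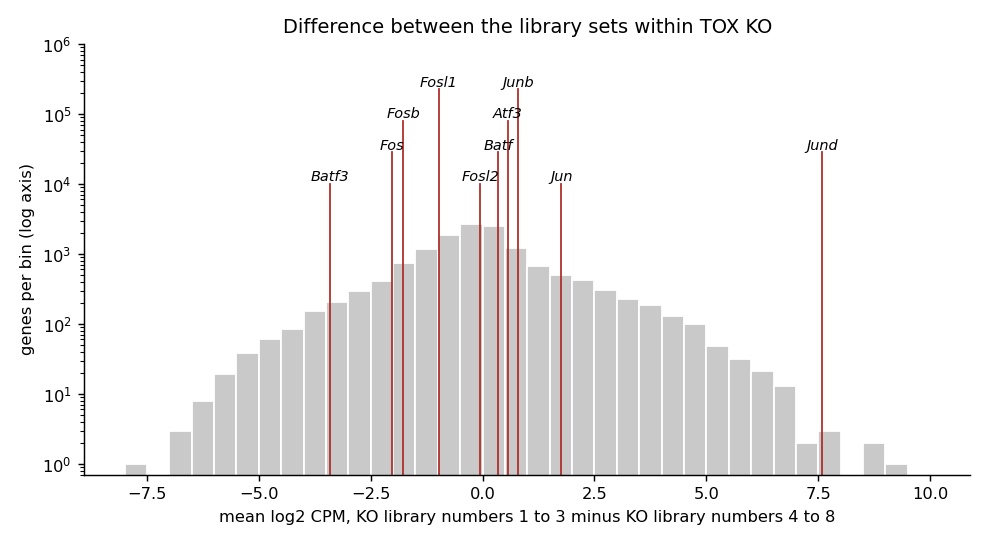
Number of tested genes (log axis) by the difference in mean log2 CPM between KO libraries numbered 1 to 3 and KO libraries numbered 4 to 8, in bins of 0.5; red lines mark the 10 genes. Jund lies at 7.58, at the upper end of all tested genes, and Fos and Batf3 lie below 0.

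Base composition moved with these results. Transcript GC content was 67.1% for Jund, 62.6% for Junb, 60.7% for Batf3, 56.6% for Batf, 55.5% for Jun and 51.9% for Fos (longest GENCODE M21 transcript). The 124 tested genes with a GC content at least that of Junb had a median centred log2 CPM of 2.34, 2.15, 2.11, -0.41, -1.02 and -0.58 in KO replicates 1 to 6. In WT replicates 1 to 4 that median was 2.22, -2.26, -1.02 and -2.10, so GC-rich genes were also lowest in WT replicates 2 and 4, the libraries with the least Jun and Junb. Between the KO library sets these 124 genes had a median log2 difference of 2.81, beside 7.58 for Jund alone. In the fifth of genes with the highest GC content the median log2 fold change was 0.62, and in the fifth with the lowest it was -0.61. With the GC trend of each library removed, the log2 fold change was 1.83 for Junb (± 0.66 SE, adjusted p = 0.17 by edgeR), 2.11 for Jun (± 1.02 SE, adjusted p = 0.33 by edgeR) and 0.62 for Jund (± 1.37 SE, adjusted p = 0.89 by edgeR). Among libraries numbered 4 to 8 the same removal left 2.42 for Junb (± 0.86 SE, adjusted p = 0.082 by edgeR) and 2.07 for Jun (± 0.74 SE, adjusted p = 0.083 by edgeR). There the removal also moved the median of all tested genes from -0.09 to 0.46, with 1076 genes called higher and 910 lower. The higher Jund of KO in that set was not kept (-0.25, ± 0.55 SE, adjusted p = 0.79 by edgeR).

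**Figure D3:**
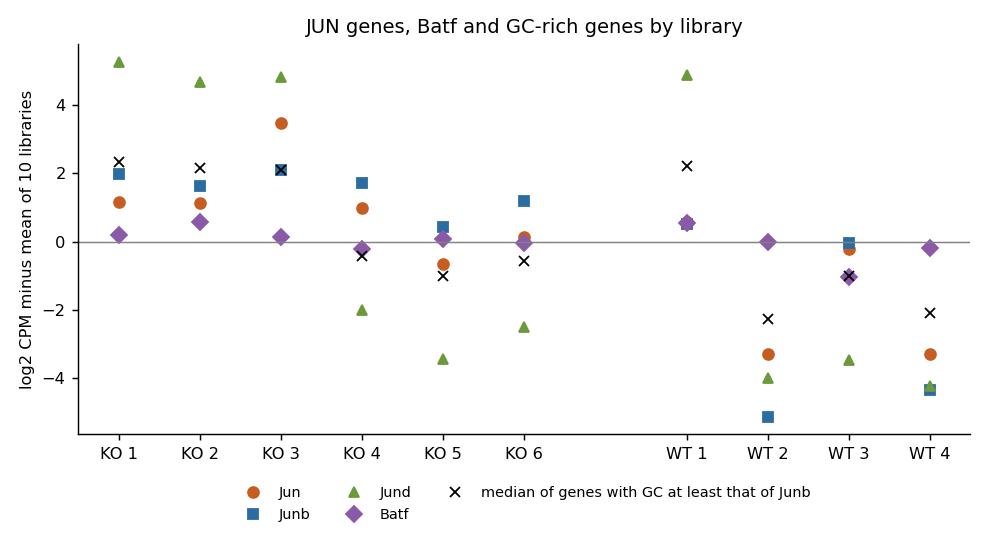
Log2 CPM minus the mean over the 10 libraries, by library with KO on the left, for Jun, Junb, Jund, Batf and the median of 124 genes at least as rich in GC as Junb. Jund and the GC-rich genes are high in KO 1, 2 and 3 and in WT 1; Jun, Junb and the GC-rich genes are lowest in WT 2 and WT 4, and Batf stays within about 1 log2 unit.

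Each JUN gene overlaps the exons of an antisense gene, and reads were counted without regard to strand. Junb (chromosome 8, 84974484 to 84978718, minus strand, GRCm38) shares 173 exonic bases with Prdx2 on the other strand, a gene at a mean of 238 CPM in KO and 326 CPM in WT. Jun (chromosome 4, 95049034 to 95052222, minus strand, 1 exon block) shares 232 bases with Junos, which stayed at or below 1.13 CPM. Jund (chromosome 8, 70698949 to 70700616, plus strand, 1 exon block) shares 877 bases with an antisense gene that had no count. The JUN counts are uncertain for reads in those shared bases only.

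The FOS and BATF genes and Atf3 share no exonic bases with other genes. Fos (chromosome 12, 85473890 to 85477273, plus strand) and Batf (chromosome 12, 85686669 to 85709087, plus strand) lie close together, as do Batf3 (chromosome 1, 191097847 to 191108945, plus strand) and Atf3 (chromosome 1, 191170296 to 191218039, minus strand). Fosb lies on chromosome 7 (19302696 to 19310051, minus strand), Fosl1 on chromosome 19 (5447703 to 5455945, plus strand) and Fosl2 on chromosome 5 (32135801 to 32157842, plus strand). Among the FOS genes, Fos was by far the most abundant and gave near equal group means. Fos held 88.2, 127, 167, 475, 590 and 456 CPM in KO replicates 1 to 6, and 61.5, 379, 399 and 270 CPM in WT replicates 1 to 4. The low values were those of library numbers 1 to 3 in both genotypes, the libraries with high Jund. Means of 317 ± 215 CPM in KO (SD, n = 6) and 277 ± 155 CPM in WT (SD, n = 4) gave a log2 fold change of 0.19 (± 0.64 SE, adjusted p = 0.90 by edgeR). Within library numbers 4 to 8 each KO library lay above each WT library, by a log2 fold change of 0.60 (± 0.27 SE, adjusted p = 0.23 by edgeR), and in numbers 1 to 3 all 3 KO libraries lay above the 1 WT library (1.09, ± 0.48 SE, adjusted p = 0.25 by edgeR). Removing the GC trend within numbers 4 to 8 gave 1.11 (± 0.33 SE, adjusted p = 0.052 by edgeR). The median of all tested genes moved as well, from -0.09 to 0.46, so the rise of Fos is not particular to it.

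Fosb, a FOS protein induced alongside Fos, held 3.21 to 25.5 CPM in KO (median 10.9 CPM) and 11.4, 7.47, 12.2 and 5.92 CPM in WT replicates 1 to 4. Its groups overlapped fully, with a log2 fold change of 0.49 (± 0.63 SE, adjusted p = 0.73 by edgeR). Within library numbers 4 to 8 the value was 1.28 (± 0.51 SE, adjusted p = 0.19 by edgeR) and within numbers 1 to 3 it was -0.84 (± 0.98 SE, adjusted p = 0.59 by edgeR), so its sign differed between the library sets, with an adjusted p of 0.23 for the difference itself. Fosl2, the FRA2 protein, had the smallest SE of the 5 genes with a log2 fold change over 1. It held 16.8, 17.7, 7.18, 18.0, 8.43 and 15.8 CPM in KO replicates 1 to 6, and 3.55, 4.62, 7.88 and 7.66 CPM in WT replicates 1 to 4. All but KO replicate 3 lay above every WT library. The log2 fold change was 1.24 (± 0.47 SE, adjusted p = 0.20 by edgeR), and it was 1.17 with DESeq2 (adjusted p = 0.047). Among libraries numbered 4 to 8 it stood at 1.11 (± 0.45 SE, adjusted p = 0.19 by edgeR) and within numbers 1 to 3 it was 2.00 (± 0.92 SE, adjusted p = 0.26 by edgeR). Fosl1, the FRA1 protein, was close to absent, at 0 to 2.78 CPM in KO and 0 to 0.64 CPM in WT. It had no count in 1 of 6 KO and 2 of 4 WT libraries, and its log2 fold change was 2.49 (± 1.67 SE, adjusted p = 0.47 by edgeR). A count of 0 allows up to 0.055 to 0.085 CPM in a KO library and up to 0.072 to 0.086 CPM in a WT library (3 counts, counting error only).

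Batf, the BATF protein that T helper and exhausted T cells are known to need, was abundant and the most even of the 10 genes. It stood at 345, 450, 335, 263, 319 and 297 CPM in KO replicates 1 to 6, and at 443, 301, 149 and 268 CPM in WT replicates 1 to 4. WT replicate 3 was the lowest library and the other WT libraries lay inside the KO range. Means were 335 ± 63.6 CPM in KO (SD, n = 6) and 290 ± 121 CPM in WT (SD, n = 4), for a log2 fold change of 0.21 (± 0.30 SE, adjusted p = 0.75 by edgeR). Values of 0.37 (± 0.30 SE) within library numbers 4 to 8, -0.19 (± 0.31 SE) within numbers 1 to 3 and -0.29 (± 0.38 SE) with the GC trend removed did not pass the test either.

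Batf3, best known for the development of cross-presenting dendritic cells and also used by T cells, was the only one of the 10 with a negative log2 fold change. It had no count in KO replicates 1, 2 and 3 and 0.33, 0.22 and 1.29 CPM in KO replicates 4, 5 and 6. In WT replicates 1 to 4 it had 7.20, 0.91, 4.02 and 1.27 CPM. KO replicate 6 lay just above WT replicate 4, and 5 of 6 KO libraries lay below every WT library. The log2 fold change was -3.44 (± 1.58 SE, adjusted p = 0.29 by edgeR) over all libraries and -1.72 (± 0.99 SE, adjusted p = 0.32 by edgeR) within library numbers 4 to 8. In library numbers 1 to 3 Batf3 was at least 84.6-fold lower in each KO library than in WT replicate 1, taking 3 counts as the floor of a library. That bound covers counting error only, and detection of Batf3 in those KO libraries was not tested. With a single WT library in numbers 1 to 3, the sizes in the 2 library sets cannot be compared beyond their spread. Clec9a, a defining marker of the dendritic cells that depend on Batf3, was without a count in all 6 KO libraries and had 0, 0.80, 0.21 and 0.23 CPM in WT replicates 1 to 4, so WT replicate 1 had the most Batf3 and no Clec9a count. The summed myeloid and dendritic list moved in the same direction as Batf3, and its part in the Batf3 values was not tested.

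Atf3, a stress-induced ATF protein that pairs with JUN, was low and irregular. It held 5.19, 0, 2.83, 0.025, 1.01 and 2.84 CPM in KO replicates 1 to 6, and 0.072, 1.00, 3.22 and 2.56 CPM in WT replicates 1 to 4. The groups overlapped widely, and the log2 fold change was 0.21 (± 1.48 SE, adjusted p = 0.95 by edgeR).

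Within library numbers 4 to 8, which hold 3 KO and 3 WT libraries, 4 of 10 genes (Fos, Fosl2, Junb and Jund) were higher in KO with no overlap, where 13% of all tested genes were. None of the 10 passed the adjusted test there, against 0.842% of tested genes higher and 7.18% lower. At an unadjusted p under 0.05, 3 of 10 were higher (Fosb, Fosl2 and Jund), against 8.55% of tested genes. The median log2 fold change of the 10 was 1.19 beside -0.09 for all genes tested in that set, and it was 1.19 beside 0.46 with the GC trend removed. At 3 against 3 libraries such counts rest on few values.

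**Figure D4:**
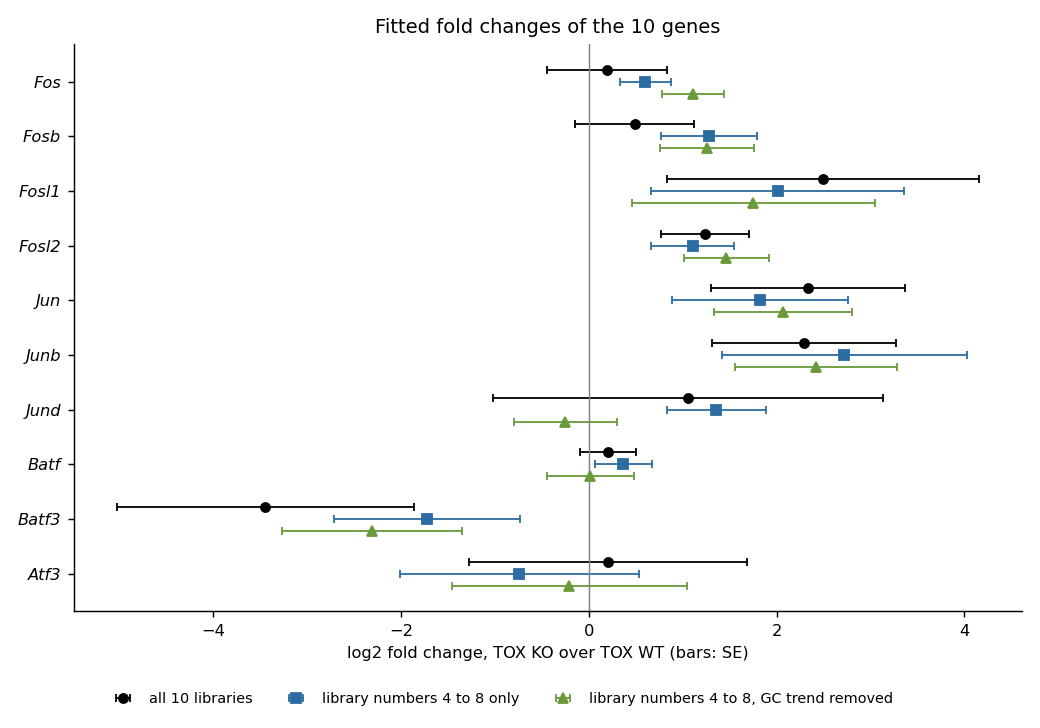
Log2 fold change of TOX KO over TOX WT with its SE for each of the 10 genes, over all 10 libraries, within library numbers 4 to 8, and within those numbers with the GC trend removed. Jun, Junb, Fosl1 and Fosl2 lie above 0 by more than 1 SE in all 3 fits, and Batf3 lies below 0 by more than 1 SE in all 3. Jund falls to about 0 once the GC trend is removed, a fit where the median of all tested genes was 0.46.

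Levels per exon length (RPKM, CPM per kilobase of counted exons) allowed the 10 genes to be ranked. In KO the order was Junb (942 ± 337 RPKM), Jund (425 ± 476), Batf (238 ± 45.3), Fos (135 ± 91.2) and Jun (45.9 ± 56.0), followed by Fosb, Fosl2, Atf3, Fosl1 and Batf3 at means of 2.08 to 0.19 RPKM (SD, n = 6). In WT the order was Batf (206 ± 85.9 RPKM), Jund (204 ± 405), Junb (192 ± 217), Fos (118 ± 65.8) and Jun (9.11 ± 9.62), followed by Batf3, Fosb, Atf3, Fosl2 and Fosl1 at means of 2.10 to 0.13 RPKM (SD, n = 4). Neighbours in either order had overlapping ranges over libraries, except Jun and Fosb in KO and Fos and Jun in WT. Transcripts of 5 genes (Junb, Jund, Batf, Fos and Jun) thus made up nearly all of the family in both genotypes. The second place of Jund rested on library numbers 1 to 3. There it took 30.2 to 40.8% of the summed RPKM of the 10 genes in KO and 49.9% in WT replicate 1. In library numbers 4 to 8 Jund took 0.27 to 0.47% in KO and 0.41 to 0.43% in WT.

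The make-up of the family varied most within WT. Of the summed RPKM of the 10 genes, JUN genes took 88.8, 81.8, 87.9, 72.7, 47.0 and 63.8% in KO replicates 1 to 6. In WT replicates 1 to 4 they took 78.6, 3.07, 52.6 and 5.50%. BATF genes took 9.19 to 24.9% in KO, and 19.6, 55.1, 18.2 and 58.5% in WT replicates 1 to 4. FOS genes took up to 28.1% in KO, and they took 1.74, 41.7, 29.0 and 35.6% in WT replicates 1 to 4. In WT replicates 2 and 4 BATF genes alone took more than JUN genes, which was seen in no KO library. The summed level was 912 to 2594 RPKM in KO and 327 to 1627 RPKM in WT. These shares carry the library and GC differences described for the JUN genes, whose part in them was not tested.

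**Figure D5:**
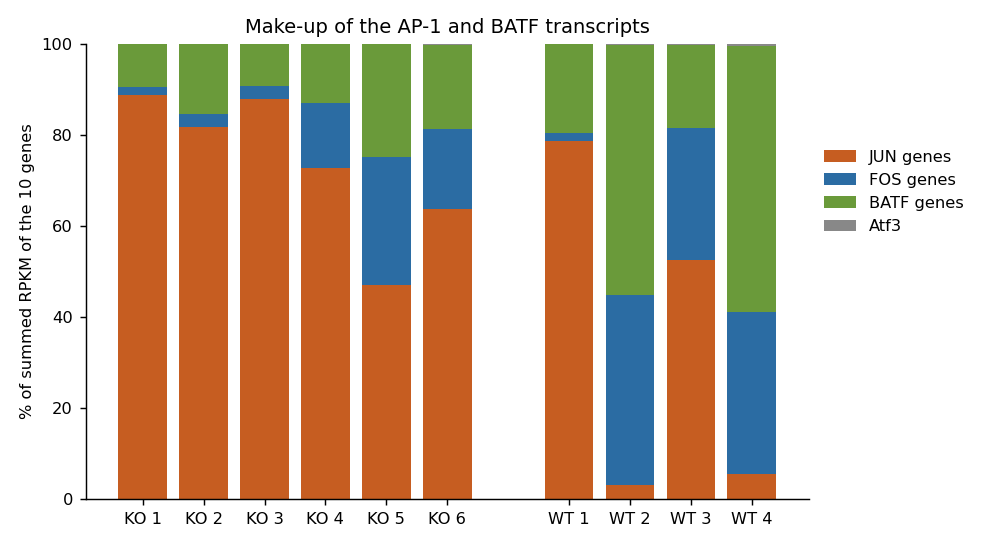
Share of the summed RPKM of the 10 genes taken by JUN genes, FOS genes, BATF genes and Atf3 in each library, TOX KO on the left and TOX WT on the right. JUN genes take 47.0 to 88.8% in KO and 3.07 to 78.6% in WT, with the lowest shares in WT 2 and WT 4.

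Genes with the most similar pattern were sought among the 8064 genes averaging 8 CPM or more, by the root mean square difference of centred log2 CPM over the 10 libraries. For Batf the closest were Gimap5 (0.089), Polr2e (0.16) and Sh2d2a (0.17), where Batf itself varied by 0.42 about its mean. For Fos they were Apol7e (0.39), Nup214 (0.41) and Syncrip (0.41), against a variation of 1.08. For Jun they were Idh2 (0.57), Atp1b3 (0.62) and Swsap1 (0.64), against 1.95. Junb and Jund were added to this search after their values were seen. Fbxl8 (0.44), Tpst2 (0.47) and Map1s (0.48) came closest to Junb, whose variation was 2.47, and Zfp771 (0.49), Pgp (0.50) and Taf10 (0.68) to Jund, at 4.06. Zfp771 shared the split of Jund, at 113, 69.0 and 93.1 CPM in KO replicates 1, 2 and 3, 1.29, 0.20 and 0.45 CPM in KO replicates 4, 5 and 6, and 154, 0.43, 0.32 and 0.11 CPM in WT replicates 1 to 4. Polr2e and Nup214, genes of the general transcription and nuclear pore machinery, stand among the closest to Batf and Fos. All these points share the same libraries, depth and base composition effects, so likeness here is a description.

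Partners and regulators of AP-1 were read from lists chosen with earlier results of these data known. Of 19 other basic leucine zipper genes tested (among them Atf2, Creb1, Maf, Bach2 and Jdp2), 0 rose and 0 fell, with a median log2 fold change of -0.11. At an unadjusted p under 0.05, 1 was higher (Atf4) and 1 lower (Jdp2), against 7.15% and 10.8% of all tested genes. DESeq2 and limma-voom called 0. The most abundant, Atf4, a factor of the amino acid and unfolded protein responses, held 229 ± 20.5 CPM in KO (SD, n = 6) and 135 ± 56.2 CPM in WT (SD, n = 4), for a log2 fold change of 0.76 (± 0.28 SE, adjusted p = 0.19 by edgeR). Neither IRF partner of BATF passed the test, at an unadjusted p under 0.05 or with the other tools either. Irf4, the main IRF partner in activated T cells, averaged 138 ± 65.6 CPM in KO libraries and 137 ± 99.0 CPM in WT libraries (log2 fold change 0.01, ± 0.63 SE, adjusted p = 0.99 by edgeR). Irf8, also abundant in B cells and dendritic cells, averaged 115 ± 47.6 CPM in KO libraries and 273 ± 249 CPM in WT libraries (log2 fold change -1.24, ± 0.63 SE, adjusted p = 0.34 by edgeR).

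The upstream list holds 18 genes of the RAS, MAP kinase, protein kinase C, SRF and ELK route. None of the 18 passed in either direction, with a median log2 fold change of 0.99 and 16 of 18 above 0. Within library numbers 4 to 8 the median was 0.64. Over all libraries, 6 were higher and 1 lower at an unadjusted p under 0.05, against 7.15% and 10.8% of all tested genes. DESeq2 called 3 higher and limma-voom 1, against 4.31% and 1.44% of all tested genes. Of 14 tested genes that AP-1 is known to bind or regulate in T cells (Il3 was too low to test), 0 rose and 0 fell, with a median log2 fold change of -0.72. At an unadjusted p under 0.05, 0 were higher and 4 lower (Csf2, Ifng, Prdm1 and Il10), against 7.15% and 10.8% of all tested genes. DESeq2 called 4 lower and limma-voom 3, where they called 999 and 680 of the 14214 tested genes lower. Ctla4, the most abundant of them over all libraries, averaged 238 ± 106 CPM in KO libraries and 180 ± 90.7 CPM in WT libraries (log2 fold change 0.41, ± 0.42 SE, adjusted p = 0.66 by edgeR). Within library numbers 4 to 8, 2 of the 14 fell in KO, where 7.18% of all tested genes were lower: Ifng (log2 fold change -3.06, edgeR adjusted p = 0.036) and Bcl6 (-1.66, edgeR adjusted p = 0.044). Over all libraries Ifng stood at -3.85 (edgeR adjusted p = 0.089) and Bcl6 at -1.85 (edgeR adjusted p = 0.37). For Bcl6, WT replicate 1 held 0.12 CPM, below every KO library (4.46 to 22.6 CPM), so library numbers 1 to 3 went the other way.

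With edgeR over all libraries, the other immediate early genes held the only called genes of these lists. Of 15 tested, 2 rose and 1 fell, where 0.429% of all tested genes rose and 2.7% fell. Nr4a1, an orphan nuclear receptor that follows T cell receptor signals, held 1126, 502, 592, 304, 481 and 649 CPM in KO replicates 1 to 6, and 254, 90.6, 150 and 140 CPM in WT replicates 1 to 4. Its groups did not overlap, and it was the only one of the 3 to pass within library numbers 4 to 8 as well (log2 fold change 1.94, ± 0.41 SE, adjusted p = 0.031 by edgeR over all libraries; 1.98 and 0.027 within numbers 4 to 8). Egr3, a zinc finger factor of the same response, averaged 37.1 ± 17.3 CPM in KO (SD, n = 6) and 5.06 ± 3.16 CPM in WT (SD, n = 4), for a log2 fold change of 2.87 (± 0.59 SE, adjusted p = 0.026 by edgeR). Ier3 averaged 1.51 ± 1.11 CPM in KO libraries and 15.9 ± 10.6 CPM in WT libraries, a log2 fold change of -3.39 (± 0.65 SE, adjusted p = 0.021 by edgeR). Zfp36, the most abundant of the list over all libraries and an RNA-binding protein that destabilises cytokine transcripts, averaged 1777 ± 201 CPM in KO libraries and 1062 ± 225 CPM in WT libraries (log2 fold change 0.74, ± 0.20 SE, adjusted p = 0.083 by edgeR). As for Nr4a1, the groups of Egr3, Ier3 and Zfp36 did not overlap. Over all tested genes 2.59% were higher and 6.31% lower in KO without overlap. Each call was lost without some of the single libraries: Nr4a1 lost its call without KO replicate 6 or WT replicate 2, 3 or 4 (adjusted p up to 0.099), Egr3 without KO replicate 1, 2 or 6 or WT replicate 2 or 4 (up to 0.11) and Ier3 without KO replicate 1, 2, 4 or 5 or WT replicate 4 (up to 0.075). Nr4a1 also missed the threshold with the GC trend removed (1.46, adjusted p = 0.060 by edgeR) and with scaling to the receptor complex genes (1.33, adjusted p = 0.11), as did Egr3 with that scaling (1.99, adjusted p = 0.10). Within library numbers 4 to 8, 3 of 15 were higher in KO (Egr1, Nr4a1 and Dusp2) and 0 lower, against 0.842% and 7.18% of all tested genes. Over all libraries, 7 were higher and 1 lower at an unadjusted p under 0.05, against 7.15% and 10.8% of all tested genes. DESeq2 called 4 higher and 1 lower, beside 613 and 999 of the 14214 tested genes. With limma-voom 3 were higher and 1 lower, beside 204 and 680. Heat shock genes, read as a sign of handling stress, had 0 of 7 tested genes called in either direction, with a median log2 fold change of -0.42. At an unadjusted p under 0.05, 1 was lower, against 10.8% of all tested genes, and DESeq2 and limma-voom called 0. The heat shock genes summed to 975 to 2030 CPM in KO and 1016 to 2075 CPM in WT. Hspa8, the most abundant of them, averaged 828 ± 307 CPM in KO libraries and 1111 ± 561 CPM in WT libraries (log2 fold change -0.42, ± 0.38 SE, adjusted p = 0.59 by edgeR).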

How the data were processed

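RNA was measured in 10 libraries, 6 TOX KO and 4 TOX WT. Per the labels, Trizol-sorted cells gave RNA that was amplified by SMART-seq V4 and sequenced as paired reads. The deposited values are raw counts of reads per gene, which the authors counted with featureCounts 1.6.2 against GENCODE M17 of GRCm38.p6 without a strand option, per the file headers. The submitters' processing notes also name STAR and FastQC. Amplified libraries hold no molecular identifiers, so counts cover PCR copies.

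From these counts, TMM scaling, filterByExpr and edgeR's quasi-likelihood test (edgeR 4.0.16, limma 3.58.1, R 4.3.3) compared KO with WT, genotype being the only term. Benjamini-Hochberg adjustment ran over all 14214 tested genes, with a threshold of 0.05. CPM use TMM-scaled library sizes, log2 CPM adds a prior count of 2, RPKM divides CPM by counted exon length, and SE is the log2 fold change over the square root of F. The code was tested on simulated data. A chi-square of counts for each pair of libraries in a group found none within sampling noise.

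The members and lists were chosen with earlier results of these data known. Named genes are all 10 members, called genes of each list (up to 4 by p), each list's most abundant gene, Irf4, Irf8, Tox, markers at the extremes, and the 3 genes most like Fos, Jun and Batf. Genes named outside this rule, and Junb and Jund in the search for likeness, were chosen after their values were seen. Not every gene that the rule names is reported here. GC content came from GENCODE M21 transcripts, known for 81.8% of tested genes. Alternatives were DESeq2 1.42.0, limma-voom, other scalings and filters, left-out libraries, blocks, the library sets and, added after the data were seen, removal of each library's GC trend (spline, 6 degrees of freedom). DESeq2 gave an adjusted p for 13827 of the 14214 tested genes, and the shares of its calls are set over all 14214.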

Additional observations from a re-analysis of the deposited data

Results flagged for a closer look

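Of 20 groups (10 genes in 2 genotypes), 3 held a library far from the others by Dixon's test for a distant value. Its limits flag about 1 in 20 groups of normally distributed values. Whether CPM follow that distribution was not tested, so the rate for these groups is not known. Jun in KO replicate 3 stood at 506 CPM, against 29.1 to 102 CPM in the other KO libraries. Jund in WT replicate 1 stood at 1354 CPM, while WT replicates 2, 3 and 4 held 2.37 to 4.10 CPM. Batf3 in KO replicate 6 stood at 1.29 CPM, against 0 to 0.33 CPM in the other KO libraries. In an interaction term for library numbers 1 to 3 against 4 to 8, the genotype effect on Batf3 had a fitted difference of -9.47 on the log2 scale (edgeR adjusted p = 0.026). KO replicates 1, 2 and 3 had no Batf3 count, so that fitted value depends on the prior count and is no bound, and WT replicate 1 is the only WT library numbered 1 to 3. No difference between the library sets is therefore read from it.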

How the results depend on the processing

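No alternative changed the 0 of 10 genes called lower, and the 0 of 10 called higher changed to 1 with DESeq2 (Fosl2) and 1 with limma-voom (Junb). The median log2 fold change of the 10 genes was 0.65 to 0.91 without any 1 library. The counts over all tested genes moved more (61 higher and 384 lower): 17 and 1862 with receptor complex scaling, 613 and 999 with DESeq2, 204 and 680 with limma-voom, 121 and 1033 for library numbers 4 to 8 alone, 316 and 79 for numbers 1 to 3 alone, 1076 and 910 within numbers 4 to 8 with the GC trend removed, and 7 and 121 at an adjusted p of 0.01. Only the lower count moved without immunoglobulin genes (222), and only the higher without a filter (39) and with the library set as a term (116). Without 1 library, 10 to 443 genes were higher and 143 to 1201 lower, the extremes being WT replicates 4 and 1; the higher count moved by over 1.5 times without each single library except KO replicate 4, the lower without WT replicate 1, 2 or 4. The replicate block left 0 and 0, as did a block by library number. Same-numbered replicates share only a number: across genes their deviations correlated at 0.29, -0.25, -0.22 and 0.30 for numbers 1 to 4, and not every library correlated best with its own number. The labels' library numbers pair only numbers 2 and 6, at 0.32 and 0.13. Signs turned, none of them of a called value, for Fos (-0.95), Fosb (-0.54), Batf (-0.41) and Atf3 (-0.69) with receptor complex scaling. They turned for Atf3 with limma-voom (-0.82), without KO replicate 1 (-0.32) or WT replicate 1 (-0.19), and within numbers 4 to 8 (-0.74; -0.21 with the GC trend removed). Fos turned without KO replicate 5 (-0.06) or WT replicate 1 (-0.13), and Batf without WT replicate 3 (-0.0046). Without 1 library Fos reached at most 0.45, Batf 0.49 and Atf3 0.71. Under the replicate block Fos was -0.37, Fosb -0.47 and Atf3 -2.52. Under the library number block Fosb was -0.16, Fosl1 -0.47, Jund -0.10 and Atf3 -2.45. Within numbers 1 to 3 Fosb was -0.84 and Batf -0.19. With the GC trend removed Batf was -0.29, and Jund was -0.25 within numbers 4 to 8. The cause of these turns was not tested. Libraries with no Batf3 count included KO replicates 2 and 3, the deepest (50869297 and 55784453 counts), so zeros were not confined to the shallower libraries. Yet KO replicates 1, 2 and 3 had counts for the fewest genes among KO libraries (15163, 15348 and 15873). WT replicate 1, with the most Batf3, had counts for 14365 genes. Whether Batf3 could have been detected in those KO libraries was not tested.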
